A study of Rattus norvegicus with 3 samples.

Results

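The genes described here build, transfer or trim the sugar chains of secreted and membrane proteins. They were chosen by gene symbol, from families of N-glycan assembly, the oligosaccharyltransferase, glycosylphosphatidylinositol (GPI) anchor synthesis, mannosidases and the Golgi glycosyltransferases. The rule found 110 of the 15037 named genes on the array, each measured by 1 probe set. By textbook role, 41 act at the endoplasmic reticulum or supply it with activated mannose, 61 act in the Golgi, and 8 were placed in neither class. The name of the set is wider than N-glycans. The Galnt genes and most St6galnac genes act on O-glycans or glycolipids, the Pig genes build GPI anchors, and Pigr, which the symbol rule also caught, encodes the polymeric immunoglobulin receptor and is no glycosylation enzyme.

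The samples were 3 cultures of FRSK, a keratinocyte cell line from fetal rat skin, with 1 Affymetrix array per culture. The control was unstimulated, another culture received Met-enkephalin (Met-ENK) and the third the β-endorphin fragment β-END(1-9), each peptide at 100 nM for 24 h. All 3 were grown in medium with 10% serum and plated at 1000000 cells per 10 cm dish. The sources used here do not say whether the control received vehicle or was cultured for the same 24 h. The comparisons ask which genes differ after each opioid peptide, and between the peptides. With 1 array per condition there is no spread between cultures and no test, so every difference below is a difference between 2 arrays with no replicate check.

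Asparagine-linked glycosylation begins on the membrane of the endoplasmic reticulum, where a branched chain of N-acetylglucosamine, mannose and glucose is assembled on the lipid dolichol. The oligosaccharyltransferase moves the finished chain onto nascent proteins, and Golgi mannosidases and transferases then trim and rebuild it into complex glycans capped with galactose, fucose and sialic acid. In keratinocytes, glycans of this kind sit on integrins, cadherins and growth factor receptors.

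Values are log2 signals, so a difference of 0.58 stands for the 1.5-fold used here as the limit for counting. Genes were counted when their mean over the arrays reached 6.41, the median of the named genes. That left 74 of the 110 members, among them 38 of 41 endoplasmic reticulum genes and 31 of 61 Golgi genes. The background probe sets of the array reached 7.57, and 49 members (44.5%) stayed at or below that level on all 3 arrays, against 57.1% of all named genes. The 1153 negative control probe sets had array medians of 6.14 to 6.19, just below the filter level, and their highest signals were 18.27 to 18.80. A signal above the filter or the background range is therefore no proof that a gene is expressed. Signals of different genes come from different probes and are not ranked against each other. The arrays had similar medians (5.93 to 5.97), but the control array was spread more widely (SD 3.42 against 3.35 and 3.36 over 23188 transcript clusters). Of all named genes passing the filter, 45.7% were lower after Met-ENK and 56.1% lower after β-END(1-9) than control, and exactly equal signals were common. Among members, 17 had 1 value on all 3 arrays, the same share as all named genes (15.5%). Of 11 listed markers of basal keratinocytes, 5 were measured and all 5 lay above the background range on every array, against 2 of 7 for fibroblasts, 1 of 4 for melanocytes, 0 of 5 for endothelium and 0 of 5 for immune cells. Of 6 listed markers of differentiated keratinocytes 3 were measured, and their median was 0.61 higher after Met-ENK than on either other array. Krt1 had 5.77 in control cells, 5.89 after β-END(1-9) and 6.75 after Met-ENK, and Ivl 5.11, 5.11 and 5.72, both within the background range, while Tgm1, above it, had 10.65, 10.56 and 10.56. The log2 of the summed signal of these 3 ranged from 10.65 to 10.73, and the part of differentiation in the Met-ENK comparison was not tested.

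The largest differences among members passing the filter belonged to Dad1 after Met-ENK and to Alg5 after β-END(1-9). Their promoter windows, 250 bases before to 50 after the annotated start, are shown from RefSeq (GRCr8) as the sequences next to the genes that lead each comparison. The Alg5 window lies at chr2:141087414-141087713 on the + strand and the Dad1 window at chr15:31667110-31667409 on the - strand. Capitals mark GC boxes (GGGCGG) and CCAAT boxes (CCAAT) on either strand.
Alg5: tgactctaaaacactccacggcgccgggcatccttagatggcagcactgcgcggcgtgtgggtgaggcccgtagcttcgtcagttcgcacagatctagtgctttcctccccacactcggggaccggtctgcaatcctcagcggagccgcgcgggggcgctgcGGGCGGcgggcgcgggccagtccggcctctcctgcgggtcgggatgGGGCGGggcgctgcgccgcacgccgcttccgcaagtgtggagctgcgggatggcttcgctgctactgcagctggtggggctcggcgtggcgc
Dad1: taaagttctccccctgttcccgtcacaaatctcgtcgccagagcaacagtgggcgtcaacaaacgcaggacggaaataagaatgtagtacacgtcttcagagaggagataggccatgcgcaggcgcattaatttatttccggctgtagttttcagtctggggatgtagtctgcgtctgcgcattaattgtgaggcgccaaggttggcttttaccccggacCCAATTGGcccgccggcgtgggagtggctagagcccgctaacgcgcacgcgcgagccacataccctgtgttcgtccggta
The Alg5 window holds 2 GC boxes and the Dad1 window 2 CCAAT boxes, which lie on opposite strands and overlap. Of 110 members, 96 matched a promoter entry, and GC boxes occurred in 56.2% of those windows against 33.1% of all 33469 windows. Member windows were 1 per gene, while the 33469 were all promoter entries, neither reduced to 1 per gene nor limited to genes on the array. CCAAT boxes occurred in 31.2% against 37.5%, and the TATA box TATAAA in 4.17% against 14.2%. The endoplasmic reticulum stress element (ERSE) was searched on both strands as CCAAT, then 9 bases of any kind, then CCACG, and so contains a CCAAT box. It occurred in 0 member windows and in 0.0657% of all windows. With 22 of 33469 windows holding it, the pattern is so rare that 0 of 96 says nothing about the members. These are letter matches only, and no binding was measured.

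**Figure D1:**
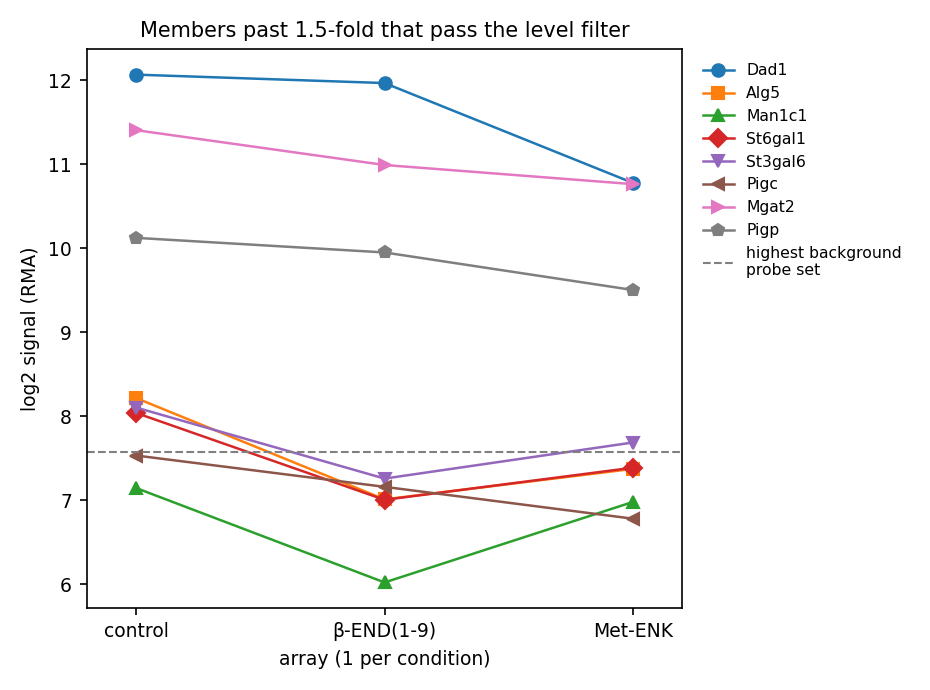
Log2 signal (y axis) on the control, β-END(1-9) and Met-ENK arrays (x axis) of the 8 members that pass the level filter and differ by at least 1.5-fold in any comparison; points are single arrays, lines only join them, and the dashed line is the highest background probe set (7.57). Dad1 is low on the Met-ENK array alone, while Alg5 and St6gal1 drop below the dashed line on both peptide arrays and St3gal6 on the β-END(1-9) array.

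After Met-ENK, 6 of the 74 members passing the filter (8.11%) were at least 1.5-fold lower than control, against 6.02% of all genes passing it, and 0 were at least 1.5-fold higher, against 0.692%. The share of lower members was thus near the background of the array. In bulk RNA, fewer cells expressing a gene and less of its RNA per cell cannot be told apart. The 6 were Dad1 (oligosaccharyltransferase), Alg5 (glucose donor synthesis), Pigc and Pigp (GPI anchor synthesis), St6gal1 (sialylation) and Mgat2 (N-glycan branching). After β-END(1-9), 4 of 74 (5.41%) were at least 1.5-fold lower, against a background of 2.27%, and 0 were higher, against 0.559%. These 4 were Alg5 (7.01 after β-END(1-9)), the Golgi mannosidase Man1c1 (6.02) and the sialyltransferases St6gal1 (7.0) and St3gal6 (7.26). All 4 of these β-END(1-9) signals lay within the background range, which reached 7.57, and this limits what can be read from the count. Man1c1 passed the filter by its mean over the arrays, while its β-END(1-9) signal alone lay below the filter level. Both comparisons use the same control array, so a high or low control signal moves both.

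Between the peptides, 1 of 74 members was at least 1.5-fold higher after Met-ENK (Man1c1), against 1.89% of genes, and 1 was lower (Dad1), against 2.7%. Man1c1 lay within the background range on every array, and its β-END(1-9) signal alone lay below the filter level. Met-ENK and β-END(1-9) were given at the same dose for the same time, and the former is an opioid pentapeptide whose residues also open the longer β-END(1-9). No interval can be given for these differences.

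Without the filter, 7 of 110 members were at least 1.5-fold lower after Met-ENK (background 4.21%) and 2 higher (2.98%). After β-END(1-9), 5 were lower (1.97%) and 2 higher (2.64%). Between the peptides, 5 were higher after Met-ENK (2.51%) and 3 lower (3.05%). The members added in this way were Pigr (-0.77), Mgat5b (0.82) and Mgat4d (0.95) for Met-ENK, and Pigb (-0.76), Mgat5b (0.73) and St6galnac1 (0.77) for β-END(1-9), all at background level. Pigr had 4.73 in control cells, 4.73 after β-END(1-9) and 3.97 after Met-ENK. Alg13l1, one of the genes placed in neither class, had 7.48 on all 3 arrays.

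**Figure D2:**
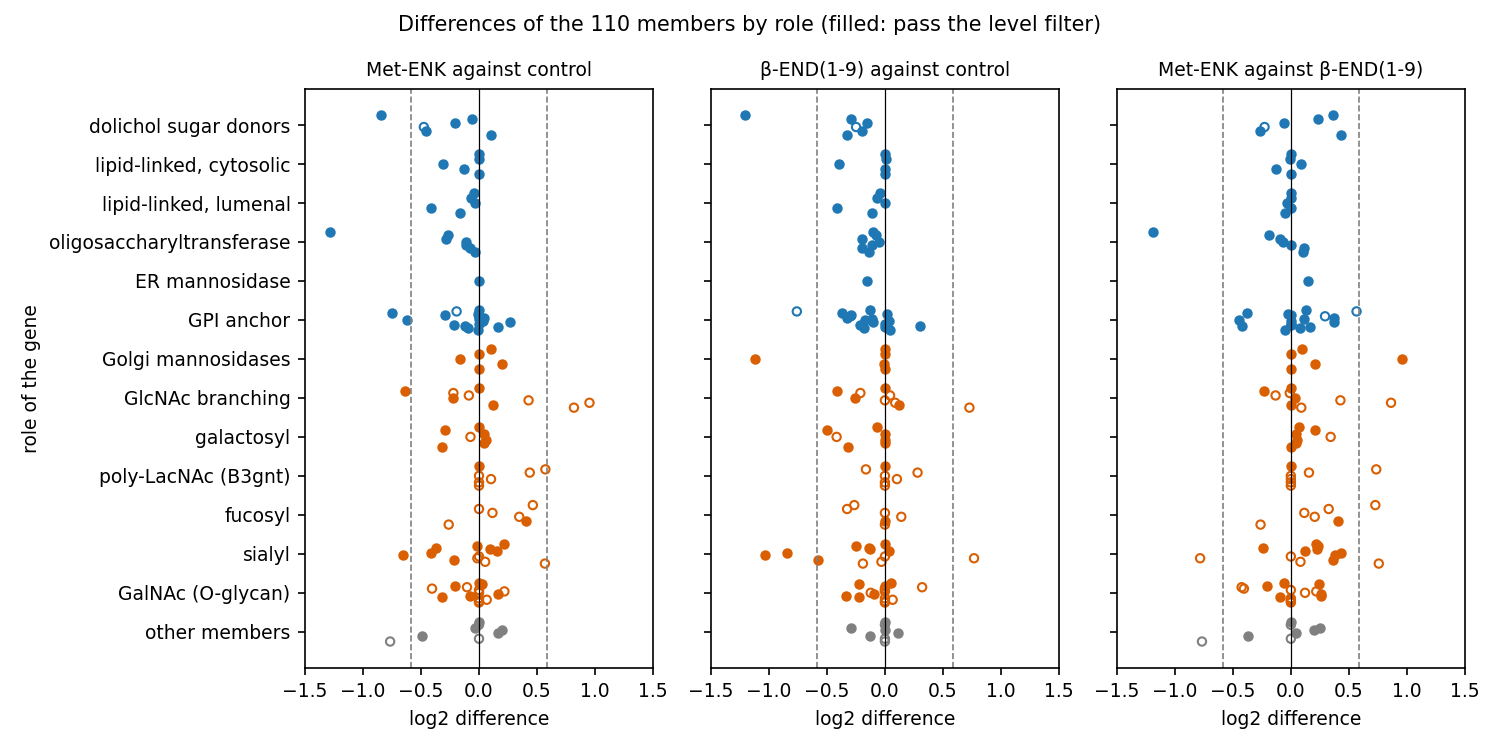
Log2 difference (x axis) of the 110 members in the 3 comparisons, 1 point per gene, by role (y axis); blue marks endoplasmic reticulum, orange Golgi and grey other genes, open points fail the level filter, and dashed lines mark 1.5-fold. Points beyond the right-hand line in the 2 comparisons with control are all open, and those beyond the left-hand line are mostly filled.

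The limit of 1.5-fold falls within a continuous range of values. After Met-ENK, the members just past it were Pigp (-0.62) and Mgat2 (-0.64), and the nearest short of it were B3gnt3 (0.57) and St6galnac5 (0.57). After β-END(1-9), Mgat5b (0.73) and Pigb (-0.76) lay just past it, and St6galnac2 (-0.57) and B4galt2 (-0.50) just short. Between the peptides, Fut1 (0.73) and B3gnt3 (0.74) lay just past it, and Pigb (0.57) and Pigp (-0.45) just short.

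Genes that supply activated sugars to the dolichol pathway were led by Alg5. Alg5 encodes dolichyl-phosphate glucosyltransferase, which makes the glucose donor for the last steps of the lipid-linked chain. Its log2 signal was 8.21 in control cells, 7.01 after β-END(1-9) and 7.37 after Met-ENK. It was thus 2.31-fold lower after β-END(1-9) and 1.79-fold lower after Met-ENK, and both peptide signals lay within the background range, while the control signal lay above it. Dpm1, the catalytic subunit of dolichol-phosphate mannose synthase, had 12.18 in control cells, 11.88 after β-END(1-9) and 12.12 after Met-ENK. Its partner subunits Dpm2 (7.83, 7.68 and 7.62 in the same order) and Dpm3 (6.21, 5.96 and 5.73) were lowest after Met-ENK, and Dpm3 did not pass the filter. The phosphomannomutase genes, whose products make mannose 1-phosphate in the cytosol, did not share a direction after Met-ENK. Pmm1 had 10.98 in control cells, 10.79 after β-END(1-9) and 10.52 after Met-ENK, and Pmm2 had 12.91, 12.58 and 13.01. All 5 donor genes passing the filter were lower after β-END(1-9) than in control cells, against 56.1% of all genes passing it, and 4 of 5 after Met-ENK, against 45.7%. Under the 3 other scalings these counts were equal, against 39.6% to 85.8% and 36.5% to 71.1% of all genes.

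Genes for the first sugar additions, made on the cytosolic side of the membrane, hardly differed. Dpagt1, which starts the chain by adding N-acetylglucosamine phosphate to dolichol phosphate, had 10.25 on all 3 arrays. The mannosyltransferase gene Alg1 had 6.83 on all 3, and the later mannosyltransferase genes Alg2 (9.36 in control cells, 9.36 after β-END(1-9) and 9.23 after Met-ENK) and Alg11 (9.51, 9.52 and 9.51) stayed within 0.13 of control. Alg14, the membrane anchor of the second N-acetylglucosamine transferase, was the member of this step with the largest difference, at 9.89, 9.49 and 9.58 in the same order.

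Genes of the lumenal steps showed small differences, whose direction depended on the scaling. On the deposited scale 5 of 5 were lower than control after Met-ENK, against 45.7% of all genes passing the filter. After β-END(1-9) it was 4 of 5, against 56.1%, and the median was -0.071 in both. After a new quantile normalization 2 of 5 were lower in each, against 36.5% and 39.6% of all genes passing the filter. The lumenal medians were then 0.013 and 0.030, against 0.056 and 0.040 for all genes passing the filter. Alg6, which adds the first glucose, had 7.23 in control cells and 6.81 after either peptide, all within the background range. Alg8, which adds the next glucose, had 8.97, 8.85 after β-END(1-9) and 8.81 after Met-ENK. The mannosyltransferase genes Alg3 (11.64, 11.64 and 11.61 in the same order) and Alg12 (9.39, 9.32 and 9.32), and the gene of the last glucosyltransferase, Alg10 (11.37, 11.33 and 11.33), differed by less than 0.1. Alg6, Alg10 and Alg12 had equal signals on both peptide arrays, so their differences from control are 1 value each. Alg9 and Alg13 are not analysed here.

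Among oligosaccharyltransferase genes, Dad1 stood out on the Met-ENK array. Dad1 encodes a small structural subunit of the enzyme, first known as a defender against cell death. Its log2 signal was 12.07 in control cells, 11.97 after β-END(1-9) and 10.78 after Met-ENK, so it was 2.44-fold lower after Met-ENK than in control cells and 2.28-fold lower than after β-END(1-9). The Met-ENK signal is low and the other two lie close together, all far above the background range. The alternative catalytic subunit genes kept within 0.2 of control. Stt3a, the subunit that acts during translocation, had 14.82, 14.62 after β-END(1-9) and 14.74 after Met-ENK, and Stt3b, which also acts after it, had 14.54, 14.40 and 14.50.

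The other subunit genes were slightly lower on both peptide arrays on the deposited scale, but their direction was mixed after quantile normalization. The ribophorin genes Rpn1 (14.44 in control cells, 14.39 after β-END(1-9) and 14.32 after Met-ENK) and Rpn2 (14.60, 14.49 and 14.49) differed by at most 0.11. Ddost, the gene of another non-catalytic subunit, had 13.12, 13.04 and 12.85, and Ostc, specific to the Stt3a complex, had 9.89, 9.69 and 9.60. All 7 subunit genes were lower than control after either peptide on the deposited scale (all genes passing the filter, 45.7% and 56.1%), with medians of -0.11 for each. After a new quantile normalization 4 of 7 were lower after Met-ENK, against 36.5% of all genes passing the filter. After β-END(1-9) it was 3 of 7, against 39.6%. The subunit medians were then -0.037 and 0.0038, against 0.056 and 0.040 for all genes passing the filter. Dad1 was still lower after Met-ENK in that setting (-1.22), and with the trend along gene length removed (-1.28).

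**Figure D3:**
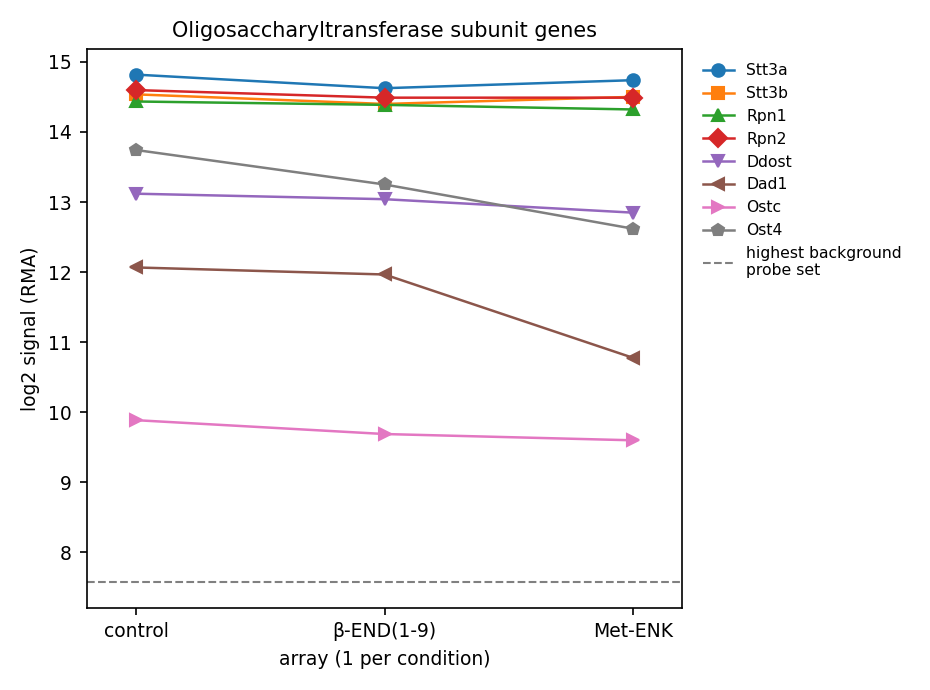
Log2 signal (y axis) of 7 oligosaccharyltransferase subunit genes of the set and of Ost4, the listed further subunit gene past 1.5-fold, on the 3 arrays (x axis); points are single arrays, lines only join them, and the dashed line is the highest background probe set (7.57). Dad1 and Ost4 are lower on the Met-ENK array (10.78 and 12.62) than in control cells (12.07 and 13.74), while Stt3a, Stt3b, Rpn1 and Rpn2 keep nearly level lines.

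GPI anchor genes differed one by one. Of 17 measured, 15 passed the filter, and 2 of these were at least 1.5-fold lower after Met-ENK, 0 after β-END(1-9), against 6.02% and 2.27% of all genes passing it. Pigc and Pigp encode subunits of the enzyme that starts the anchor by transferring N-acetylglucosamine to phosphatidylinositol. Pigc had 7.53 in control cells, 7.16 after β-END(1-9) and 6.78 after Met-ENK, all within the background range. Pigp had 10.12, 9.95 and 9.50 in the same order, above it. The other measured subunit genes of this enzyme did not follow. Pigq had 12.59 in control cells and 12.62 after either peptide, Pigh had 8.44, 8.46 and 8.43, and the catalytic subunit gene Piga had 6.56, 6.44 and 6.56. Pigy, also of this enzyme, had 6.42, 6.47 and 6.41.

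Later GPI steps stayed short of 1.5-fold apart from Pigb. Pigb, a mannosyltransferase gene, had 5.95 in control cells, 5.19 after β-END(1-9) and 5.75 after Met-ENK and did not pass the filter. Pigm, which adds the first mannose, had 10.22, 9.90 and 10.27, and Pigv, which adds the second, had 7.14, 7.44 and 7.02. The transamidase attaches the finished anchor to proteins. Among its genes Pigt had 13.57 on all 3 arrays, Pigk 8.23 in control cells and 7.94 after either peptide, Pigu 10.01 and 9.80 after either peptide, and Pigs 9.31, 9.20 and 9.57. The remaining Pign, Pigx, Pigw and Pigl differed from control by at most 0.29.

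Mannosidases remove mannose from the transferred chain. Man1b1, the mannosidase of the early pathway, had 11.60 in control cells, 11.45 after β-END(1-9) and 11.60 after Met-ENK. Of the Golgi mannosidase genes, Man1c1 had 7.14, 6.02 and 6.98 in the same order, 2.18-fold lower after β-END(1-9) than control and 1.94-fold higher after Met-ENK than after β-END(1-9). All 3 Man1c1 signals lay within the background range. Its relatives Man1a1 (7.21, 7.21 and 7.31) and Man1a2 (11.53 on all 3) did not differ by more than 0.1. Man2a1, which makes the last trimming step towards complex glycans, had 14.09, 14.08 and 14.29, and Man2a2 had 7.95 on all 3. The mannosidase genes of glycan breakdown differed in direction. The lysosomal Man2b1 had 9.61, 9.61 and 9.80, Man2b2 had 10.26, 10.38 and 10.42, and the cytosolic Man2c1 had 8.07, 7.95 and 7.58.

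Branching genes set how many antennae a complex glycan carries. Mgat2, which starts the second antenna, had 11.40 in control cells, 10.99 after β-END(1-9) and 10.76 after Met-ENK, so that it was 1.56-fold lower after Met-ENK. Mgat1, whose product acts just before it, had 8.75 on all 3 arrays. Mgat4b (8.70, 8.44 and 8.48) and Mgat5 (8.72, 8.84 and 8.84), which add further antennae, stayed within 0.26 of control, and Mgat3, Mgat4a, Mgat4c, Mgat4d and Mgat5b did not pass the filter. Mgat4d had 4.33 in control cells, 4.42 after β-END(1-9) and 5.28 after Met-ENK, and Mgat5b had 3.72, 4.45 and 4.54, all within the background range.

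Galactose and N-acetyllactosamine genes showed 0 differences of 1.5-fold from control, against 1.97% to 4.21% of all named genes in a given direction. B4galt1, the main galactosyltransferase of N-glycans, had 10.90, 10.83 after β-END(1-9) and 10.90 after Met-ENK. B4galt3 had 9.83, 9.83 and 9.87, and B4galt2 had 7.99, 7.48 and 7.69. B4galt4, B4galt5, B4galt6 and B4galt7 differed from control by at most 0.42. B3gnt2, which extends polylactosamine chains, had 10.28 on all 3 arrays and was the member of its family that passed the filter. B3gnt4, B3gnt5, B3gnt6, B3gnt7 and B3gnt8 lay within the background range, with differences from control of 0 to 0.44.

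Among fucosyltransferases, Fut8, which adds the core fucose, had 10.39 in control cells, 10.39 after β-END(1-9) and 10.80 after Met-ENK. It was the family member in the Golgi class that passed the filter, and its difference of 0.41 after Met-ENK was the highest among the members that passed. The control and β-END(1-9) arrays had equal Fut8 signals, so it was also 0.41 higher after Met-ENK than after β-END(1-9). Fut2, Fut4, Fut7 and Fut9 lay within the background range, as did Fut10 (3.47 on all 3) and Fut11 (6.90, 6.61 and 6.86).

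Of 8 sialyltransferase genes passing the filter, 2 were at least 1.5-fold lower after β-END(1-9), against 2.27% of all genes passing it, and 1 after Met-ENK, against 6.02%. St6gal1, which caps N-glycans with α2,6-linked sialic acid, had 8.04 in control cells, 7.0 after β-END(1-9) and 7.39 after Met-ENK, or 2.05-fold and 1.57-fold lower. Its peptide signals lay within the background range. St3gal6, an α2,3-sialyltransferase gene, had 8.10, 7.26 and 7.69 in the same order, 1.80-fold lower after β-END(1-9), where its signal lay within the background range. St6galnac2, which sialylates O-glycans, had 13.16, 12.58 and 12.94, far above background and just short of 1.5-fold after β-END(1-9).

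The remaining sialyltransferase genes that passed the filter lay nearer to control. St3gal1 had 8.32, 8.32 after β-END(1-9) and 8.53 after Met-ENK, St3gal2 had 9.14, 8.89 and 9.12, and St3gal3 had 8.56, 8.42 and 8.19. St3gal4 had 7.84, 7.71 and 7.93, and the ganglioside gene St3gal5 had 8.72, 8.76 and 8.88. Of the 8 sialyltransferase genes passing the filter, 7 were higher after Met-ENK than after β-END(1-9), by 0.12 to 0.43, against 45.4% of all genes passing it, and St3gal3 was lower by 0.24. The split was 7 to 1 under the 3 other scalings too, against 48.9% to 68.3% of all genes.

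The polypeptide N-acetylgalactosaminyltransferases, which start mucin-type O-glycans, had 0 of 15 members past 1.5-fold in any comparison. Of all named genes, 1.97% to 4.21% were past it in a given direction and comparison, so 0 of 15 is near the background. Galnt2 had 12.40 in control cells, 12.31 after β-END(1-9) and 12.57 after Met-ENK. Galnt3 had 11.51, 11.17 and 11.43, Galnt1 had 10.80, 10.86 and 10.80, and Galnt10 had 10.28, 10.06 and 10.30. Galnt4 had 8.05, 7.83 and 7.74, and Galnt11 had 6.85, 6.85 and 6.64. The other 9 genes did not pass the filter and lay within the background range, 4 of them with 1 value on all arrays.

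Set by compartment, the endoplasmic reticulum genes were slightly lower than the Golgi genes relative to control on the deposited scale, an order that turned for β-END(1-9) after quantile normalization. Over all 41 and 61 genes, the median difference after Met-ENK was -0.079 for the endoplasmic reticulum and 0.00 for the Golgi, and after β-END(1-9) -0.13 and 0.00, against 0.00 for all named genes in both. Over the members that passed the filter the medians were -0.075 and 0.00 after Met-ENK, and -0.11 and -0.071 after β-END(1-9), so that the gap there was -0.042 in place of -0.13. After a new quantile normalization, the medians over all 41 and 61 genes were -0.040 and -0.057 after β-END(1-9), so their order turned. After Met-ENK they were -0.0077 and 0.0052. Over the members that passed the filter they were -0.019 and 0.018 after β-END(1-9), and -0.0013 and 0.067 after Met-ENK. There the endoplasmic reticulum median stayed the lower in both. Of the endoplasmic reticulum genes that passed the filter, 26 of 38 (68.4%) were lower than control after Met-ENK, against 45.7% of all genes passing it, and 27 (71.1%) after β-END(1-9), against 56.1%. In the quantile-normalized values these were 19 of 38 against 36.5%, and 21 of 38 against 39.6%. The compartments also differ in level and gene length. In the fifth of genes with the highest means lay 16 endoplasmic reticulum and 9 Golgi members. There 64.6% of all named genes were lower after β-END(1-9) and 44.0% after Met-ENK. The median genomic span was 14.9 kb for endoplasmic reticulum members and 49.6 kb for Golgi members. With the trend along span removed, the endoplasmic reticulum medians were -0.083 after Met-ENK and -0.13 after β-END(1-9). The Golgi medians were then 0.0017 and -0.0097. The part of level and of gene length in the gap was not tested.

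Between the peptides the Golgi genes were the higher class on the Met-ENK array. Of 31 that passed the filter, 21 (67.7%) were higher after Met-ENK than after β-END(1-9), against 45.4% of all genes passing it, and 5 were lower, against 33.0%. Their median difference was 0.071, and that of the endoplasmic reticulum genes 0.00, with 13 of 38 higher and 15 lower. The Golgi count was 21 to 26 under the other scalings, against 48.9% to 68.3% of all genes. These differences are small beside the 1.5-fold limit.

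**Figure D4:**
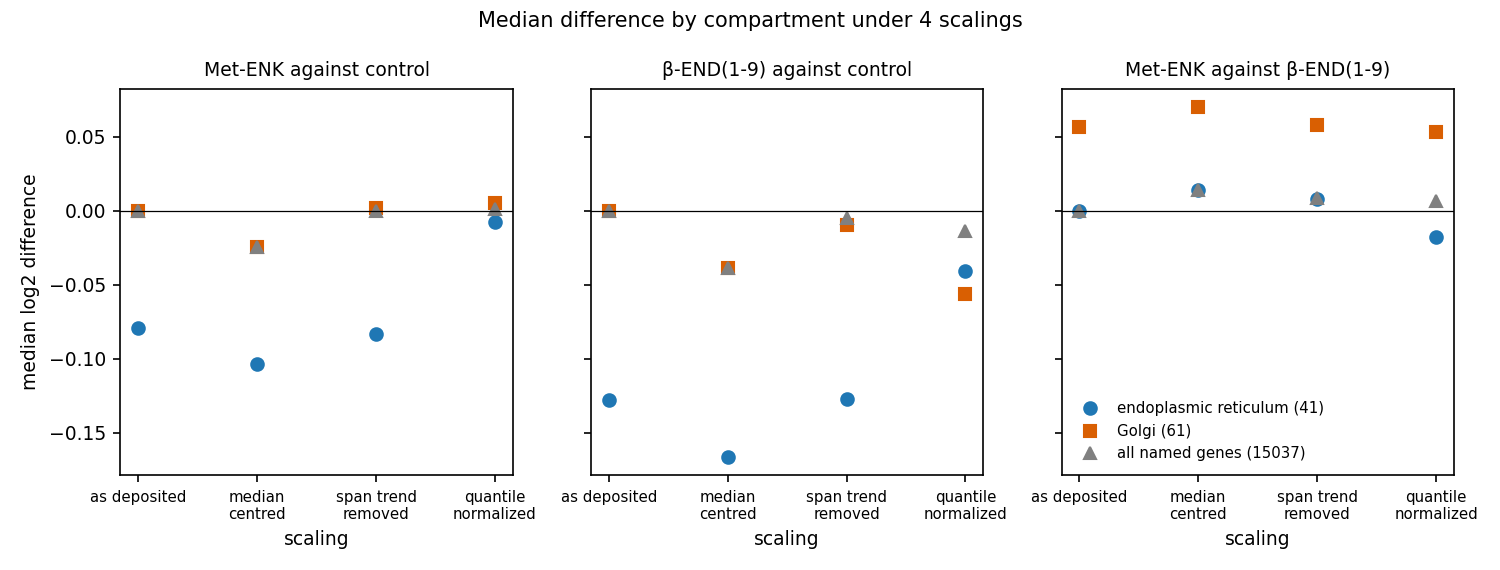
Median log2 difference (y axis) of 41 endoplasmic reticulum members, 61 Golgi members and all 15037 named genes in the 3 comparisons under 4 scalings (x axis). The endoplasmic reticulum median lies below the Golgi median with the deposited values (-0.13 and 0.00 after β-END(1-9)), and after quantile normalization they are -0.040 and -0.057 in that comparison.

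Glycosylation genes outside the symbol families were taken from a list of 109 symbols, some of them old and new names of the same gene, of which 91 were measured and 78 passed the filter. It covers glucosidases and lectin chaperones, further oligosaccharyltransferase subunits, dolichol synthesis, sugar nucleotides and their transporters, O-glycan enzymes and Golgi tethers. After Met-ENK, 0 of 78 were at least 1.5-fold higher and 1 lower than control, against 0.692% and 6.02% of all genes passing the filter. That gene was Ost4, another small oligosaccharyltransferase subunit, with 13.74 in control cells, 13.25 after β-END(1-9) and 12.62 after Met-ENK. After β-END(1-9), 0 were higher and 3 lower, against 0.559% and 2.27%. These were the branching enzyme gene Gcnt2 (-0.84), the Golgi tether gene Golgb1 (-0.80) and Ogt (-0.62), which modifies nuclear and cytosolic proteins. The other listed oligosaccharyltransferase subunit genes stayed short of 1.5-fold in all comparisons. Magt1 (11.48, 11.39 and 11.41) and Tusc3 (9.62, 9.90 and 9.59) encode alternative oxidoreductase subunits, and Krtcap2 (6.68, 6.21 and 6.12) did not pass the filter. Between the peptides, 4 were higher after Met-ENK (background 1.89%), the transporter gene Slc35a5 (0.92), Gcnt2 (0.81), Ogt (0.63) and the dolichol kinase gene Dolk (0.62), and Ost4 was lower (-0.63, background 2.7%). Calr, the lectin chaperone calreticulin, had 17.15, 17.07 after β-END(1-9) and 17.34 after Met-ENK. The list's median difference was -0.0053 after Met-ENK and -0.036 after β-END(1-9) over its 91 measured genes.

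Length and control probes moved with the Met-ENK comparison. Of the 6 members lower after Met-ENK, Mgat2, Pigc and Pigp have short genomic spans of 2.49, 2.53 and 6.17 kb, but Alg5 and Dad1 span 14.3 and 19.8 kb and St6gal1 127 kb. Ost4 spans 1.23 kb. In the fifth of named genes with the shortest spans, 6.22% were at least 1.5-fold lower after Met-ENK, against 1.73% in the fifth with the longest. At least 1.5-fold higher were 4.66% and 2.43%, so the shortest genes passed the limit more often in both directions. With the trend along span removed, Pigc (-0.74), Mgat2 (-0.63) and Pigp (-0.60) were still past 1.5-fold. For the 399 positive control probe sets the median difference was -0.23 between Met-ENK and control and -0.12 between β-END(1-9) and control, and for the 1153 negative ones it was 0.086 and 0.031. The part of gene length and of the shift in the control probes in these differences was not tested.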

How the data were processed

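Total RNA from 3 FRSK cultures was extracted with TriPure and labelled with the WT PLUS kit, per the labels' protocols. The authors deposited log2 signals. The tools named in the submitters' processing notes are Affymetrix Expression Console, Transcriptome Analysis Console and RMA, which corrects background, quantile-normalizes probes and summarises each probe set. All 3 arrays had the same highest transcript cluster signal (19.93). The 23 background probe sets had the same median, range and SD on every array. What in the processing gave these values and the many equal gene signals was not tested. No version or genome build is given in the sources used here. Depth does not apply to arrays, and their number, 1 per group, limits the precision.

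Of 24834 probe sets, 1646 controls were left out. The platform annotation gives 1 symbol for 15049 of the other 23188, several for 0 and none for 8139. Where probe sets shared a gene, that of highest mean was kept. All 15037 Entrez identifiers matched RefSeq of GRCr8, which gave genomic spans for 15031 and changed 0 symbols. Groups came from sample titles.

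Differences of log2 signals were computed with Python 3.11.15, pandas 2.3.3 and statsmodels 0.14.6, with no test. Alternatives were quantile normalization, median centring, other filters and removal of a lowess trend along log10 span (fraction 0.3). The scripts were tested on simulated data. Members and lists were chosen with earlier results of these data known. Any member may be named. Values on all arrays are given at least for members past 1.5-fold that pass the filter and for the highest mean in each role. Listed genes outside the rule are named when past the filter and 1.5-fold, or of highest mean.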

Additional observations from a re-analysis of the deposited data

Results flagged for a closer look

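B3gnt3, Fut1 and St6galnac5 differed from control in opposite directions with the 2 peptides and by at least 1.5-fold between them. None of these differences was tested, and the genes failed the level filter. B3gnt3 was 0.74 higher after Met-ENK than after β-END(1-9), at 6.13 in control cells, 5.96 after β-END(1-9) and 6.70 after Met-ENK. Fut1, which makes the H antigen, was 0.73 higher, at 5.36, 5.09 and 5.82 in the same order. St6galnac5 was 0.76 higher, at 2.80, 2.61 and 3.37. St6galnac1 met the same criterion by sign alone. It differed by -0.78 between the peptides, at 3.92, 4.69 and 3.91, but its Met-ENK signal was 0.014 from that in control cells, and this difference was 0.0061 with the span trend removed. All 4 lay within the background range on all arrays.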

How the results depend on the processing

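No paired analysis was possible because each condition has 1 array. After a new quantile normalization, 3 members in place of 6 were at least 1.5-fold lower after Met-ENK, since St6gal1 (-0.57), Mgat2 (-0.57) and Pigp (-0.54) fell short. Over all genes of the 2 classes, the endoplasmic reticulum median minus the Golgi median after β-END(1-9) went from -0.13 to 0.016. Over those passing the filter, the endoplasmic reticulum median stayed the lower (-0.019 against 0.018). With only genes whose mean lay above the highest background probe set, 3 members were at least 1.5-fold lower after Met-ENK (Dad1, Mgat2 and Pigp). After β-END(1-9) it was 1 in place of 4 (St3gal6, whose β-END(1-9) signal of 7.26 lay below that level). Higher after Met-ENK than after β-END(1-9) were 0 in place of 1. The share of all genes past 1.5-fold under this filter is not given here, so these counts have no background beside them. Without the filter, 2 in place of 0 were higher after either peptide, and between the peptides 5 in place of 1 were higher and 3 in place of 1 lower after Met-ENK. Median centring put St6galnac2 past 1.5-fold after β-END(1-9) (-0.61). Among genes passing the filter, 340 were at least 1.5-fold lower and 90 higher after Met-ENK after quantile normalization, against 453 and 52 as deposited, and after β-END(1-9) 114 and 62, against 171 and 42. Dad1 after Met-ENK (-1.31 to -1.22), Alg5 after β-END(1-9) (-1.24 to -1.14) and Man1c1 after β-END(1-9) (-1.16 to -1.10) stayed past 1.5-fold under the 3 other scalings. The cause of the other changes was not tested. Signals within the background range limit what can be read from Alg5, St6gal1, St3gal6, Man1c1 and Pigc.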
